A study of Mus musculus with 6 samples.

Results

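A set of 10 genes of the mouse piRNA pathway was followed in ID4-GFP+ spermatogonia: Piwil1, Piwil2, Piwil4, Tdrd1, Tdrd9, Rnf17, Ddx4, Mael, Asz1 and Gtsf1. They were chosen by gene symbol, each symbol matched 1 entry, and the 10 members stand among 23355 gene entries in the authors' table, of which 10990 were tested. The set was defined as lying outside chromosome 15, but the table places Gtsf1 on chromosome 15, at 103402459 to 103430427, so values are also given for the 9 members elsewhere. All 10 members passed the authors' filter on low values.

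The cells were sorted testis germ cells that carry a green fluorescent reporter for ID4, from mice with overexpression of ID4 in germ cells (3 samples) and from control mice (3 samples). The ID4 protein pairs with transcription factors of the bHLH (basic helix-loop-helix) class and keeps them off DNA. The labels give neither the promoter that drives the extra ID4, nor the age of these mice, nor whether each sample is a separate animal, so the authors' p-values measure the spread between these samples, which may be technical. Expression is the authors' FPKM (fragments mapped to a transcript, divided by its length and by the size of the library), 1 value for each group over its 3 samples, and a gene counts as called at an authors' q (p-value adjusted over all tested genes) of 0.05 or less. No values per sample were used, so no SD is given, the depth of the libraries is unknown, and overlap between the samples of the groups cannot be described.

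piRNAs are small RNAs of the germ line that guide PIWI proteins to transposon transcripts. In mouse male germ cells they are made and loaded in nuage, perinuclear granules built from Tudor-domain proteins, helicases and mitochondria-anchored scaffolds. In the fetal testis, PIWIL2 cleaves transposon RNA and PIWIL4 enters the nucleus, where its complex directs DNA methylation of transposon promoters, while PIWIL1 works later, in spermatocytes and round spermatids.

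Id4 was higher with overexpression, at 13.4 FPKM in ID4-overexpressing cells and 6.37 FPKM in control cells, a ratio of 2.11 with q = 0.000835 in the authors' deposited table. The piRNA genes had smaller ratios. Of the 10 members, 3 fell (Piwil2, Piwil4 and Tdrd9), 0 rose and 7 were not called, while among all tested genes 17.0% were called, 7.42% lower and 9.59% higher. At a q of 0.01 none of the 3 passed, and at an unadjusted p under 0.05 in the authors' test the counts were again 3 lower and 0 higher. The 3 lower members all lie outside chromosome 15, where 5.51% of 10577 tested genes were called lower. The median log2 ratio of overexpression to control was -0.28 over the 10 members, -0.24 over the 9 outside chromosome 15 and 0.01 over all tested genes. The members' own values ran from -0.59 to 0.12 on that scale, and 7 of the 10 lay below 0.

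**Figure D1:**
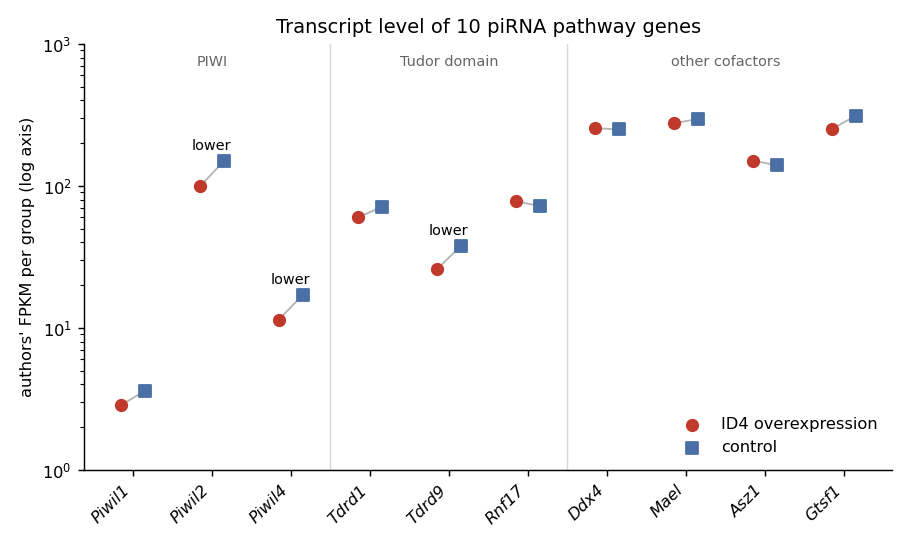
Authors' FPKM of the 10 members on a log axis, 1 value per group over 3 samples, with ID4 overexpression as circles and control as squares. Piwil2, Piwil4 and Tdrd9, marked lower, were called; Ddx4, Asz1, Rnf17 and Mael have nearly level lines, with overexpression at 93.3% to 108% of control.

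The PIWI genes encode the Argonaute-family proteins that carry piRNAs. Piwil2, which encodes MILI, fell to 99.3 FPKM in ID4-overexpressing cells, against 149 FPKM in control cells, or 66.6% of the control level. The log2 ratio was -0.59, with p = 0.00145 and q = 0.0132 in the authors' deposited table. The gene lies on chromosome 14, at 70372480 to 70429094.

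Piwil4, which encodes MIWI2, the nuclear PIWI protein, fell by a similar proportion at a lower level. It stood at 11.5 FPKM in ID4-overexpressing cells and 17.1 FPKM in control cells, 67.1% of control, with a log2 ratio of -0.58 and q = 0.0197 in the authors' deposited table. It lies on chromosome 9, at 14702358 to 14740733, and the annotation places the antisense gene Gm10706 and a pseudogene, Gm15586, on its opposite strand. The use of strand in counting is not given in the sources used here, so reads of such partners cannot be told apart from those of Piwil4.

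Piwil1, which encodes MIWI, was scarce, at 2.86 FPKM in ID4-overexpressing cells and 3.602 FPKM in control cells, and was not called (log2 ratio -0.33, q = 0.365 in the authors' deposited table). FPKM is scaled to transcript length, which allows a rough comparison of the PIWI genes. The cDNA was primed with oligo d(T), and read coverage along each transcript was not examined. Piwil2 made up 87.4% of the summed PIWI FPKM in ID4-overexpressing cells and 87.8% in control cells. Piwil4 made up 10.08% in ID4-overexpressing cells and 10.05% in control cells. The sum itself was 114 FPKM in ID4-overexpressing cells and 170.0 FPKM in control cells. The shares of PIWI FPKM were thus close in both groups while their total differed.

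Among the members with Tudor domains, which bind methylated arginines of PIWI proteins, 1 of 3 was called lower. Over all tested genes 7.42% were called lower, and 3 genes are too few to set against that share. Tdrd9, an RNA helicase with a Tudor domain that partners PIWIL4 in fetal germ cells, fell to 25.9 FPKM in ID4-overexpressing cells, against 37.8 FPKM in control cells, or 68.6% of control. Its log2 ratio was -0.54 with q = 0.0117 in the authors' deposited table, and it lies on chromosome 12, at 111971559 to 112068854, where Rd3l overlaps it on the opposite strand. Tdrd1, a scaffold that binds PIWIL2, had 60.1 FPKM in ID4-overexpressing cells and 71.0 FPKM in control cells and was not called (log2 ratio -0.24, q = 0.380 in the authors' deposited table). Rnf17, also known as Tdrd4, which restrains piRNA cross-talk in spermatocytes, had 78.2 FPKM in ID4-overexpressing cells and 72.1 FPKM in control cells and was not called (log2 ratio 0.12, q = 0.721 in the authors' deposited table). Rnf17 shares chromosome 14 with Piwil2, at 56402697 to 56525031, and its ratio lies on the other side of 0.

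The remaining cofactors held the 3 highest levels of the set in both groups (Mael, Ddx4 and Gtsf1), and none was called. Ddx4, the mouse VASA helicase and a general germ cell marker, had 255 FPKM in ID4-overexpressing cells and 250.01 FPKM in control cells, a log2 ratio of 0.03 with q = 0.941 in the authors' deposited table. Mael, the nuage protein Maelstrom needed for transposon silencing, had 276 FPKM in ID4-overexpressing cells and 296 FPKM in control cells (log2 ratio -0.10, q = 0.765 in the authors' deposited table). Asz1, also called GASZ, which anchors nuage components at mitochondria, had 151 FPKM in ID4-overexpressing cells and 139.6 FPKM in control cells (log2 ratio 0.11, q = 0.721 in the authors' deposited table). These levels differed by less than the authors' test could separate from sample spread.

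Gtsf1, a zinc-finger protein that assists target cleavage by PIWI proteins, had 252 FPKM in ID4-overexpressing cells and 312 FPKM in control cells, 80.7% of control. It was not called (log2 ratio -0.31, p = 0.0652, q = 0.210 in the authors' deposited table). On its chromosome 15, 56.2% of 413 tested genes were called lower and the median log2 ratio was -0.63, so Gtsf1 lay above that median. It was the most abundant member in control cells and the third in ID4-overexpressing cells, where Mael and Ddx4 stood above it. Asz1 and Piwil2 also changed places, with Asz1 above Piwil2 in ID4-overexpressing cells and below it in control cells. The 5 least abundant members kept their order in both groups, Rnf17 highest, then Tdrd1, Tdrd9, Piwil4 and Piwil1.

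The level of Ddx4 gives 1 possible scale from within the germ cells. Ddx4 is itself a member, at 102% of control, and Dazl, another germ cell gene, stood at 86.1% of control. A scale on Dazl would thus give smaller decreases. Piwil2 stood at 0.389 of the Ddx4 FPKM in ID4-overexpressing cells and 0.597 in control cells. Tdrd9 stood at 0.101 of it in ID4-overexpressing cells and 0.151 in control cells, and Piwil4 at 0.0449 in ID4-overexpressing cells and 0.0683 in control cells. Rnf17, by contrast, was at 0.306 of Ddx4 in ID4-overexpressing cells and 0.288 in control cells. These ratios have no error, since each rests on a single value per group.

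**Figure D2:**
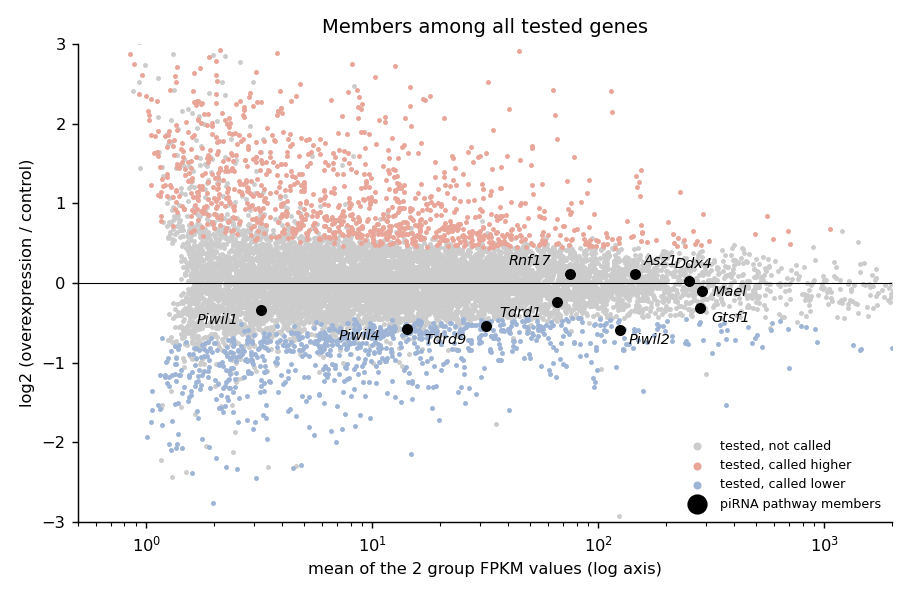
Log2 ratio of overexpression to control against mean FPKM (log axis) for all tested genes with a value above 0 in both groups, 1 point per gene, coloured by the authors' call, with the 10 members in black; 76 tested genes beyond the axis limits are not drawn. The 3 called members lie among the lower calls between -0.54 and -0.59, and the 7 others lie among uncalled genes.

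The size of the decreases that could be called bears on the 7 uncalled members. Among 5515 tested genes with a mean of 10 to 400 FPKM, a range that holds every member but Piwil1, 6.71% were called lower and 8.29% higher. The smallest called decrease there was -0.44 on the log2 scale, 73.9% of control. None of the 2057 genes with a log2 ratio between -0.4 and 0 was called at q of 0.05, against 104 of 144 genes (72.2%) between -0.6 and -0.5, where Piwil2, Piwil4 and Tdrd9 lie. A decrease of the size seen in Gtsf1 or Tdrd1 was thus not detectable in these data, which does not show that these genes were level.

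RefSeq promoter sequences, 250 bases before to 50 after the start site, were found for 8 members, and not for Piwil2 and Rnf17. Piwil4 had 2 promoters and Tdrd1 had 3. For each member only the promoter nearest the gene's start in the authors' table was searched, which for Piwil4 lay 61 bases from it. Shares over promoters of tested genes count every promoter of a gene. ID4 acts on bHLH factors, which bind the E-box CANNTG, so the promoters were searched for it on both strands. The first pair below belongs to genes that fell and the second pair to genes that were not called; capitals mark each E-box.
Piwil4 (GRCm38.p6, chr9:14740623-14740922, minus strand): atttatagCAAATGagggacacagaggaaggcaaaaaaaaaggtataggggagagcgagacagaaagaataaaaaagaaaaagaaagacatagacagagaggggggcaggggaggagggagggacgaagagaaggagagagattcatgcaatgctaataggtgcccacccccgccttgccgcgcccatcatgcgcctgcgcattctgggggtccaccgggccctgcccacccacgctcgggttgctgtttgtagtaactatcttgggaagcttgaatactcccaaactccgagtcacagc
Tdrd9 (GRCm38.p6, chr12:111971309-111971608, plus strand): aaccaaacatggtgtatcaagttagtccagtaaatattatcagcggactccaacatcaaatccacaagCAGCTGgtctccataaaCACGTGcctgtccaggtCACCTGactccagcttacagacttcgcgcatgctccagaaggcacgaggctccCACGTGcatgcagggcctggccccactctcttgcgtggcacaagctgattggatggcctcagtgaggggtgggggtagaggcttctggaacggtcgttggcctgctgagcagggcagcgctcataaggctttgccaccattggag
Tdrd1 (GRCm38.p6, chr19:56825959-56826258, plus strand): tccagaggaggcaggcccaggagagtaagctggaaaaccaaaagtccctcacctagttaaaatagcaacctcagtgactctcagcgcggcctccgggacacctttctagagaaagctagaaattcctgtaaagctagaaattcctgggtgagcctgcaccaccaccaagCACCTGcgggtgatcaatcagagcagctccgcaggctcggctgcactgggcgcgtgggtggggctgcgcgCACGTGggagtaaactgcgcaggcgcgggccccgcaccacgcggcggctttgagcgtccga
Ddx4 (GRCm38.p6, chr13:112652261-112652560, minus strand): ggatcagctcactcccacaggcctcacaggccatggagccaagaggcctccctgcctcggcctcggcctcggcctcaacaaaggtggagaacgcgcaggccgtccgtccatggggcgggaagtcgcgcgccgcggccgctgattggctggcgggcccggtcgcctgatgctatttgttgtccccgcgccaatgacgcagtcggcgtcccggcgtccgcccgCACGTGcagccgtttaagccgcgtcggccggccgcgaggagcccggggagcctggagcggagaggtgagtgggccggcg

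The MYC-type E-box CACGTG, a form of CANNTG bound by dimers of the MYC, MAX and MGA family and by USF factors, was common in these promoters. It occurred in 5 of 8 (Piwil1, Tdrd1, Tdrd9, Ddx4 and Mael), against 10.8% of 10519 promoters of tested genes. E-boxes of any form occurred in 6 of 8, against 63.3%. Tdrd9 carried 4 E-boxes, 2 of them CACGTG, starting 165 and 95 bases before the start site, and 1 CAGCTG. Piwil4, which fell to a similar degree, held a single CAAATG, 242 bases before the start site, and no CACGTG. Ddx4 and Tdrd1, which were not called, held CACGTG 29 and 11 bases before their start sites. Among called members CACGTG was thus present in the promoter of Tdrd9 and absent from that of Piwil4, and Piwil2 had no promoter to search. It was also present in promoters of uncalled members. So few called promoters cannot relate the motif to the calls. The MYB core TAACNG, related to the site of A-MYB, a transcription factor of pachytene piRNA genes in spermatocytes, occurred in Piwil1 (2 matches) and Mael (1 match), against 19.6% of promoters of tested genes. Asz1 and Gtsf1 held none of these motifs in this window. A match in sequence is not evidence of binding, and whether ID4 pairs with the factors named for CACGTG was not tested.

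**Figure D3:**
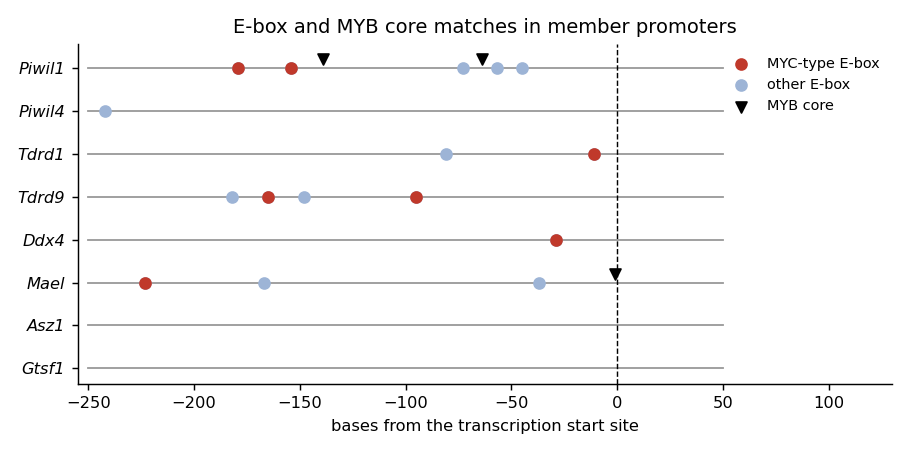
Positions of motif matches in the RefSeq promoters of 8 members, in bases from the transcription start site (dashed line), with MYC-type E-boxes in red, other E-boxes in pale blue and MYB cores as triangles. The MYC-type E-box occurs in 5 of the 8, both in Tdrd9, which fell, and in Ddx4, Tdrd1, Mael and Piwil1, which were not called.

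The genes nearest to the called members were mostly uncalled, as were all tested genes, of which 17.0% were called. Among the 20 nearest tested genes (10 on each side) of Piwil2, 1 was lower and 2 rose (median log2 ratio 0.24), on a chromosome where 6.06% of tested genes were lower. Around Piwil4 2 of 20 were lower and none of the 20 rose (median 0.16), on a chromosome with 6.95% lower. Around Tdrd9 3 of 20 were lower and 1 rose (median -0.19), on a chromosome with 7.01% lower and a median of 0.01. Around Gtsf1, which lies near the chromosome end and has 11 such neighbours, 3 were lower and 1 rose (median -0.28), close to the value of Gtsf1 itself.

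**Figure D4:**
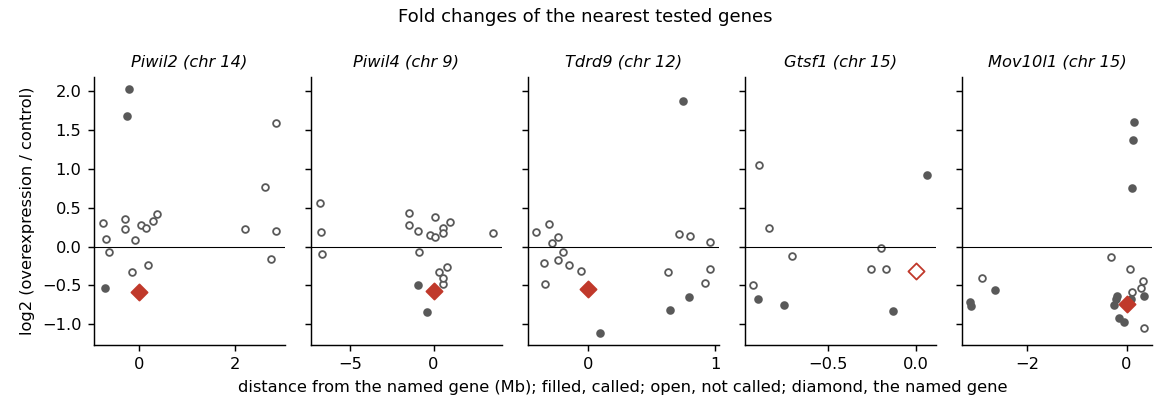
Log2 ratio of overexpression to control for the nearest tested genes, up to 10 on each side, against distance in Mb from the named gene (diamond), with filled symbols for called genes. Neighbours of Piwil2, Piwil4 and Tdrd9 scatter on both sides of 0, while around Mov10l1 10 of 20 were called lower.

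Among other genes of the pathway, Mov10l1, Dnmt3l and Dnmt3b fell. Of 26 listed genes, 22 were tested, 3 were lower, 0 were higher, and the median log2 ratio was -0.09, while 7.42% of all tested genes were lower. Of the 3, Dnmt3l and Dnmt3b lie outside chromosome 15. At an unadjusted p under 0.05 in the authors' test, 1 (Stk31) was higher and 5 were lower, Pld6 and Tcfl5 beside the 3 called. In piRNA processing and nuage, 1 of 13 tested genes fell: Mov10l1, the helicase that starts processing of piRNA precursors, at 87.9 FPKM in ID4-overexpressing cells and 147 FPKM in control cells (log2 ratio -0.74, q = 0.000835 in the authors' deposited table). It lies on chromosome 15, where the median was -0.63, and its 20 nearest tested genes had a median of -0.61. The most abundant of this list, Fkbp6, a co-chaperone of PIWI loading, had 676 FPKM in ID4-overexpressing cells and 719.97 FPKM in control cells and was not called (log2 ratio -0.09).

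Other processing factors were measured at moderate levels and were not called. Pld6, the mitochondrial nuclease that cuts piRNA precursors, had 22.2 FPKM in ID4-overexpressing cells and 30.2 FPKM in control cells, with q = 0.0823 in the authors' deposited table. Pnldc1, which trims the 3′ ends of piRNAs, and Tdrd12, a Tudor helicase of secondary piRNA production, had log2 ratios of -0.01 and -0.03. Stk31, a Tudor-domain kinase of germ cells, had 171 FPKM in ID4-overexpressing cells and 134 FPKM in control cells, the highest log2 ratio of the list at 0.36, with q = 0.156 in the authors' deposited table.

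The partners of nuclear silencing included the largest called decreases among the piRNA pathway lists. There, 2 of 6 tested genes were lower, against 7.42% of all tested genes, and none of the 6 rose. The median log2 ratio was -0.20. Dnmt3l, the cofactor of de novo DNA methylation that acts with the PIWIL4 pathway on transposons in fetal germ cells, fell to 0.538 FPKM in ID4-overexpressing cells, against 2.19 FPKM in control cells (log2 ratio -2.02, q = 0.00486 in the authors' deposited table). Dnmt3b, a de novo DNA methyltransferase, fell to 12.2 FPKM in ID4-overexpressing cells, against 25.3 FPKM in control cells (log2 ratio -1.04, q = 0.000835 in the authors' deposited table). Dnmt3a, Tex15, Morc1 and Uhrf1 were not called, with log2 ratios from -0.22 to 0.22. Prmt5 and Wdr77, which together place the arginine methyl marks that Tudor proteins read, were not called, at -0.20 and -0.02. Tcfl5, a transcription factor of pachytene piRNA genes, was the only tested gene of its list, with 9.48 FPKM in ID4-overexpressing cells and 12.8 FPKM in control cells (log2 ratio -0.43, q = 0.158 in the authors' deposited table). Mybl1, which encodes A-MYB, was not tested, at 0.265 FPKM in ID4-overexpressing cells and 0.231 FPKM in control cells.

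Relatives of the members that serve other pathways gave no higher calls. Of 10 tested genes of Argonaute and microRNA function, 2 were lower, against 7.42% of all tested genes, with a median of -0.26. The 2 were Tarbp2, a partner of DICER, at 41.6 FPKM in ID4-overexpressing cells and 66.1 FPKM in control cells (q = 0.00215 in the authors' deposited table), and Tnrc6b, a silencing scaffold, at 2.16 FPKM in ID4-overexpressing cells and 3.08 FPKM in control cells (q = 0.0356 in the authors' deposited table). Both lie on chromosome 15, where 56.2% of tested genes were called lower. With chromosome 15 left out, 0 of these relatives were called lower. Of 6 tested Tudor, MOV10 and DEAD-box relatives of broad expression, 0 were called, and the most abundant, Mov10, an RNA helicase related to MOV10L1, had 57.3 FPKM in ID4-overexpressing cells and 77.9 FPKM in control cells with q = 0.0508 in the authors' deposited table. Smn1, a Tudor protein of spliceosome assembly, had a log2 ratio of -0.01. At an unadjusted p under 0.05 in the authors' test, 3 of these 16 relatives were lower and 0 higher.

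**Figure D5:**
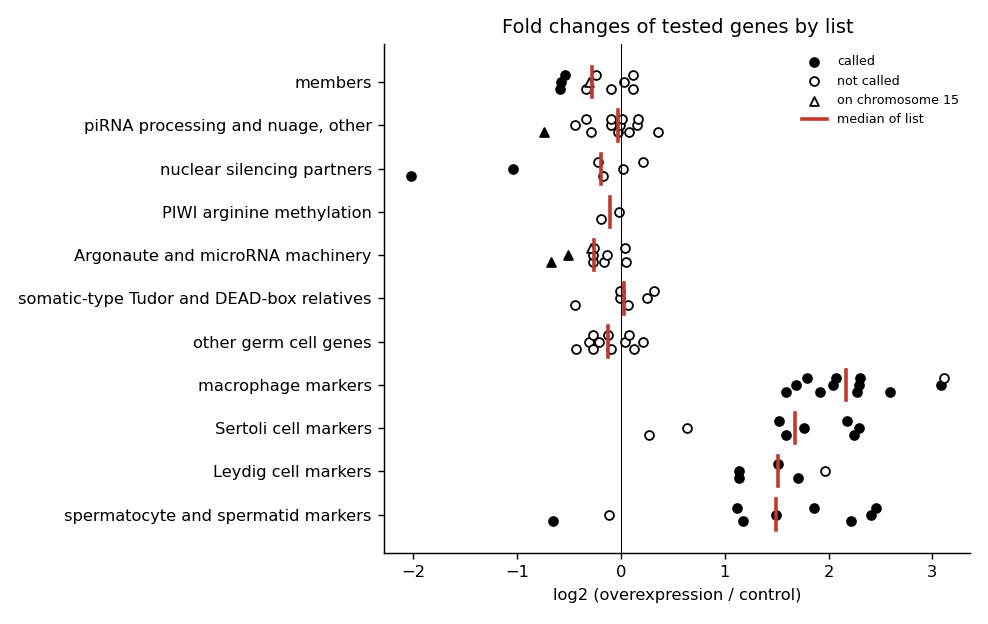
Log2 ratio of overexpression to control for each tested gene of the lists, filled where called and as triangles where on chromosome 15, with the list median as a red bar. Of the 10 members 3 are filled, all left of 0, while marker lists of macrophages, Sertoli and Leydig cells have medians of 1.51 to 2.17.

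The sorted cells held transcripts of other cell types, more so with overexpression, and in bulk RNA fewer cells of a type and less RNA per cell cannot be told apart. Of 12 tested macrophage markers 11 were higher, with a summed level of 317 FPKM in ID4-overexpressing cells and 84.6 FPKM in control cells. Of 8 tested Sertoli cell markers 6 were higher, with sums over the 13 listed of 229.8 FPKM in ID4-overexpressing cells and 68.2 FPKM in control cells, and of 5 tested Leydig cell markers 4 were higher, with sums over the 7 listed of 73.6 FPKM in ID4-overexpressing cells and 26.4 FPKM in control cells. No listed marker was at 0, and none of the 5 peritubular myoid markers was tested (at most 1.39 FPKM in ID4-overexpressing cells and 1.45 FPKM in control cells). The part of these cells in the lower piRNA transcripts was not tested. The 11 other germ cell genes, measured in the same RNA, had 0 calls in the authors' test (1 lower at an unadjusted p under 0.05), against 17.0% of all tested genes. Their median log2 ratio was -0.12. The most abundant were Dazl, an RNA-binding protein of germ cells, at 790.5 FPKM in ID4-overexpressing cells and 918 FPKM in control cells, and Tex19.1, which limits transposons in mouse germ cells, at 426 FPKM in ID4-overexpressing cells and 455 FPKM in control cells. Relative to the median of these 11 genes, Piwil2 was at -0.46, Piwil4 at -0.45 and Tdrd9 at -0.42, while Mael was at 0.03. The 11 were chosen with earlier results of these data known, so they do not describe germ cell genes in general. Outside this list, germ cell genes were called in both directions, such as Stra8 lower (log2 ratio -1.19) and Gfra1 higher (1.24).

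Transcripts of later germ cells bear on Piwil1, whose protein is made after the start of meiosis. Of 9 tested spermatocyte and spermatid markers 7 were higher and 1 was lower, and the protamine and transition protein genes Prm1, Prm2, Tnp1 and Tnp2 summed to 311 FPKM in ID4-overexpressing cells and 78.0 FPKM in control cells. Piwil1 did not share the direction of these protamine and transition protein genes, at 79.4% of control and uncalled. Hspa2, a chaperone of spermatocytes, was the lower marker, at 23.5 FPKM in ID4-overexpressing cells and 37.0 FPKM in control cells (q = 0.00438 in the authors' deposited table). Sycp1, of the same list, had 91.5 FPKM in ID4-overexpressing cells and 99.2 FPKM in control cells. It was not called (log2 ratio -0.12, q = 0.716 in the authors' deposited table). Piwil1 and Sycp1, both uncalled, lay on the same side of 0 as Hspa2. The 7 higher markers lay on the other side, among them Ldhc (log2 ratio 1.49) and Pgk2 (1.86).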

How the data were processed

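RNA from ID4-GFP+ spermatogonia was sequenced in 6 samples, 3 with ID4 overexpression and 3 controls, with oligo d(T)-primed cDNA per the labels' protocols. The submitters' processing notes name TopHat, Cufflinks and mm9, with no version numbers. The authors deposited FPKM as 1 value per group, beside the p-value and q-value of their own test, in the layout of Cuffdiff per the file headers. Positions match GRCm38: 99.1% of 21631 entries found in GENCODE M21 overlapped the gene of that name. Coordinates are printed 1-based.

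Log2 ratios of overexpression to control were recomputed from the FPKM without a pseudocount, with Python 3.11.15 and pandas 2.3.3. No model was refitted: calls use the authors' q, which differed by at most 4.77e-05 from a Benjamini-Hochberg adjustment of their p-values. The ratio and call steps were tested on simulated data. No set test was run, and lists are described by counts and medians. Members and lists were chosen with earlier results of these data known. The text names Id4, every member and, from each other list of pathway genes, relatives or germ cell genes, each called gene or, where none was called, the 2 most abundant tested genes; marker lists are given by counts and levels; Fkbp6, Pld6, Pnldc1, Tdrd12, Stk31, Dnmt3a, Tex15, Morc1, Uhrf1, Mybl1 and the genes named beside markers were added after their values were seen. Alternatives were other q thresholds, minimum levels and folds, pseudocounts, other centring and leaving out chromosome 15. Spocd1 and Btbd18 matched no entry by these symbols, so they were not analysed here.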

Additional observations from a re-analysis of the deposited data

How the results depend on the processing

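The 3 lower members kept q under 0.05 with chromosome 15 left out and p readjusted over the remaining tested genes (q of 0.0136 to 0.0225, Benjamini-Hochberg on the p-values of the authors' deposited table), and the count also stayed at 3 at a q threshold of 0.1 and with a minimum of 1 FPKM. At a q threshold of 0.01 it was 0, and with a minimum absolute log2 ratio of 1 it was 0. Among the Argonaute, Tudor and DEAD-box relatives the 2 lower calls became 1 at a q threshold of 0.01, 0 with the minimum ratio of 1, and 0 without chromosome 15. Lower calls among the other pathway genes stayed within 1.5 times under each of the alternatives. Of 40 recomputed log2 ratios of members, 39 kept their sign; Mael, at -0.10 as reported, was at 0.025 once the median of other germ cell genes (-0.12) was subtracted. The median over members, -0.28 as reported, was -0.150 with that subtraction. Leaving out replicates was not run, because the table gives 1 value per group. No paired analysis was possible because the labels carry no replicate numbers and no values per sample were used. Depth is unknown, so no counting interval is given.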

Other observations

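Gtsf1l, a relative of Gtsf1 that is known from haploid germ cells in the mouse, was looked up after its values were seen. It stood at 2.24 FPKM in ID4-overexpressing cells and 0.418 FPKM in control cells, a log2 ratio of 2.42 that was not called (q = 0.229 in the authors' deposited table), while Gtsf1 itself had a log2 ratio of -0.31. Tdrd6, a Tudor protein of the chromatoid body of spermatids, was not tested, at 0.190 FPKM in ID4-overexpressing cells and 0.105 FPKM in control cells.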
